A study of Mus musculus with 59 samples.

Results

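The question addressed here was which genes of the brown adipose tissue (BAT) responded to cold differently in BATKO mice and in control (CTRL) mice. The answer was read from an interaction of genotype and temperature, that is, the difference of 2 differences: the 4 °C minus 30 °C change in CTRL mice, minus the same change in BATKO mice. All the mice of the temperature experiment entered it, 16 of the 59 mice of the series. They were CTRL mice at 4 °C (n = 3; mice 1, 2 and 5), CTRL mice at 30 °C (n = 4; mice 19 to 22), BATKO mice at 4 °C (n = 4; mice 7, 8, 11 and 12) and BATKO mice at 30 °C (n = 5; mice 13 to 17). All were male C57BL/6J mice aged 8 to 12 weeks, and the cold lasted 24 h according to the name of the deposited table. The labels and the study's text give neither the duration at 30 °C nor the genetic change, promoter or Cre line behind the name BATKO, so the targeted gene was not checked. They do not say either whether a library was made from 1 mouse, and each is treated here as 1 mouse.

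BAT burns fuel to make heat. In the cold, noradrenaline released by sympathetic nerves acts on beta-adrenergic receptors of brown adipocytes, raises cAMP, releases fatty acids from triglycerides and activates UCP1, which lets protons flow back into mitochondria without making ATP. At 30 °C, close to thermoneutrality for a mouse, this program is quiet. Thyroid hormone (TH) acts in the same cells through nuclear receptors encoded by *Thra* and *Thrb*, and the deiodinase encoded by *Dio2* makes the active hormone T3 within the tissue.

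The libraries held 8008348 to 12887313 counts, and mitochondrially encoded genes took 39.3% to 55.3% of them. The 15 brown adipocyte markers were all above 3 counts in some library, and their summed normalized counts were between 297209 and 363628 in CTRL at 4 °C, 82946 and 102382 in CTRL at 30 °C, 218083 and 313915 in BATKO at 4 °C, and 84950 and 109404 in BATKO at 30 °C. Transcripts of skeletal muscle varied far more than the groups explain: the sum of 16 markers, all above 3 counts in some library, was between 2102 and 9591 in CTRL at 4 °C, 139 and 69139 in CTRL at 30 °C, 268 and 24550 in BATKO at 4 °C, and 213 and 111173 in BATKO at 30 °C. The 4 highest sums were those of BATKO mice 17 and 13 and CTRL mice 21 and 20, all at 30 °C. The markers of red blood cells, 7 of 7 above 3 counts, were higher in the cold in both genotypes, with sums between 8342 and 18627 in CTRL at 4 °C and between 8388 and 12084 in BATKO at 4 °C, against 1927 to 5385 at 30 °C.

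Of 55341 genes listed, the 13267 with a mean normalized read count above 10 over the 16 mice were tested with edgeR, at a Benjamini-Hochberg adjusted p-value under 0.05 and with no threshold for the size of the change. In these units a positive difference means that the cold response was higher in CTRL than in BATKO, and a negative one that it was lower. The cold response differed between the genotypes for 149 genes, 1.12% of those tested. It was higher in CTRL for 107 genes (0.807%) and lower in CTRL for 42 (0.317%). The median of the log2 difference was 1.21 for the former and its median size 1.52 for the latter, beside a median of 0.02 over all genes tested. For comparison, 6514 genes (49.1%) responded to cold in CTRL, 3514 up and 3000 down, and 5340 (40.3%) did so in BATKO, 2836 up and 2504 down. Before adjustment, 2471 genes had an interaction p-value under 0.05.

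Most of the genes with a higher response in CTRL were upregulated by cold in both genotypes, but by less in BATKO. Of the 107, 60 rose in both genotypes, 37 rose in CTRL and did not pass the threshold in BATKO, 8 rose in CTRL and fell in BATKO, and 2 fell in BATKO without passing the threshold in CTRL. Of the 42 with a lower response in CTRL, 17 fell in both, 15 fell in CTRL and did not pass in BATKO, 7 fell in CTRL and rose in BATKO, and 3 rose in BATKO without passing in CTRL. The signs of the fitted responses were opposite for 41 of the 149 genes.

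**Figure D1:**
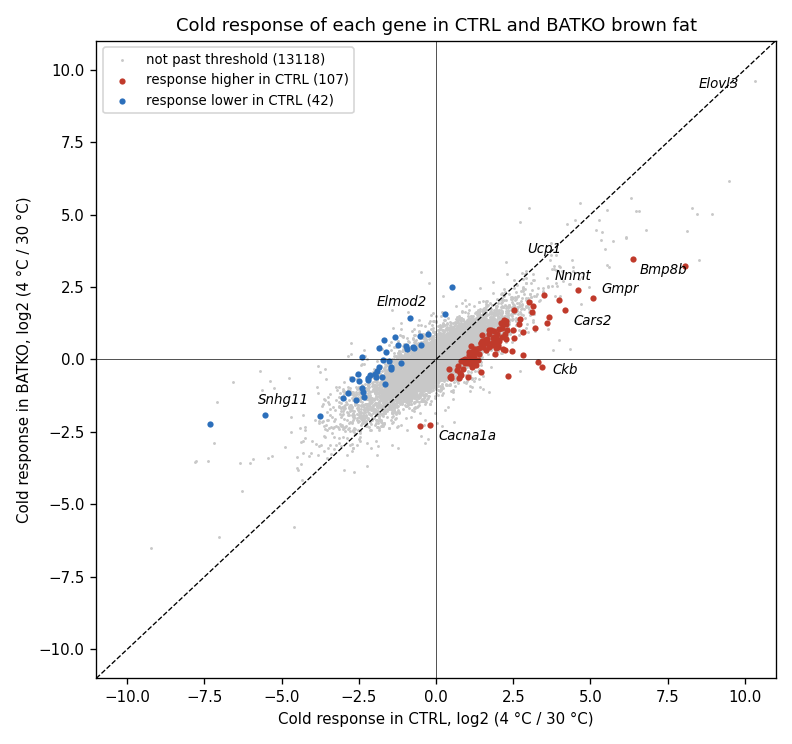
Log2 cold response (4 °C against 30 °C) of each of the 13267 genes in CTRL (horizontal axis) and BATKO (vertical axis); red and blue points are the 107 genes with a higher and the 42 with a lower response in CTRL, and the dashed line marks equal responses. Most coloured points lie between the dashed line and the horizontal axis, where the BATKO response has the same sign and is smaller.

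BATKO and CTRL mice differed for 286 genes (2.16%) at 4 °C, 127 of them higher (0.957%) and 159 lower (1.20%) in BATKO, and for 1 gene (0.00754%), *Elmod2*, at 30 °C. The number at 4 °C was 649 with DESeq2 (211 higher and 438 lower in BATKO), 769 with limma voom, 61 with only the 2 groups fitted, and between 53, without CTRL mouse 2, and 565, without CTRL mouse 5, when 1 mouse was left out. It was also below 286 by over 1.5 times without CTRL mouse 1 (72) and BATKO mice 7, 8 and 12 (141, 146 and 78), all at 4 °C, and was 154 without the 4 libraries of highest muscle markers. At 30 °C DESeq2 called 8 genes, and without those 4 libraries edgeR no longer called *Elmod2*. These comparisons read the same mice as the interaction, so the following counts describe the 149 genes and are no separate evidence. Among them, 104 passed the threshold at 4 °C and 1 at 30 °C. The ranges of CTRL and BATKO mice did not overlap for 132 of the 149 at 4 °C and for 38 at 30 °C, where 13.2% and 3.15% of all genes tested had such ranges. By chromosome, the share of tested genes among the 149 was highest on chromosome 15 (11 of 520, 2.12%), chromosome 4 (16 of 809, 1.98%) and chromosome 8 (13 of 718, 1.81%), and of the autosomes lowest on chromosome 14 (1 of 483, 0.207%). They were more expressed than the other genes, with a median of 297 normalized counts against 123.

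The number of genes rested heavily on single mice. Without CTRL mouse 1, 2 or 5 at 4 °C it was 5, 20 or 907. It was 33, 33, 17 and 108 without CTRL mouse 19, 20, 21 or 22 at 30 °C, and 49, 61, 200 and 55 without BATKO mouse 7, 8, 11 or 12 at 4 °C. Without BATKO mouse 13, 14, 15, 16 or 17 at 30 °C it was 227, 41, 176, 36 or 38. DESeq2 called 652 genes (461 higher and 191 lower in CTRL) and limma voom with sample weights 724 (488 and 236), and both called all 149. Leaving out the 4 libraries with the highest muscle markers left 4 genes, *Ckb*, *Cars2*, *Elmod2* and *Pde1a*, with 2 mice in CTRL and 3 in BATKO at 30 °C, whereas adding the muscle score as a covariate gave 185, of which 145 were among the 149. Only *Cars2*, *Elmod2*, *Ckb*, *Ctsz* and *Proca1* passed the threshold whichever mouse was left out, so that every other call named here was lost at least without CTRL mouse 1 at 4 °C. Without the 4 libraries *Ctsz* (difference 1.87, adjusted p = 0.112) and *Proca1* (1.21, adjusted p = 0.127) did not pass. The 37 named genes that passed the threshold kept the sign of their difference in every other setting tried. Most were named for large differences or small p-values in these same mice, which the settings reuse. The kept signs are therefore no separate evidence.

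**Figure D2:**
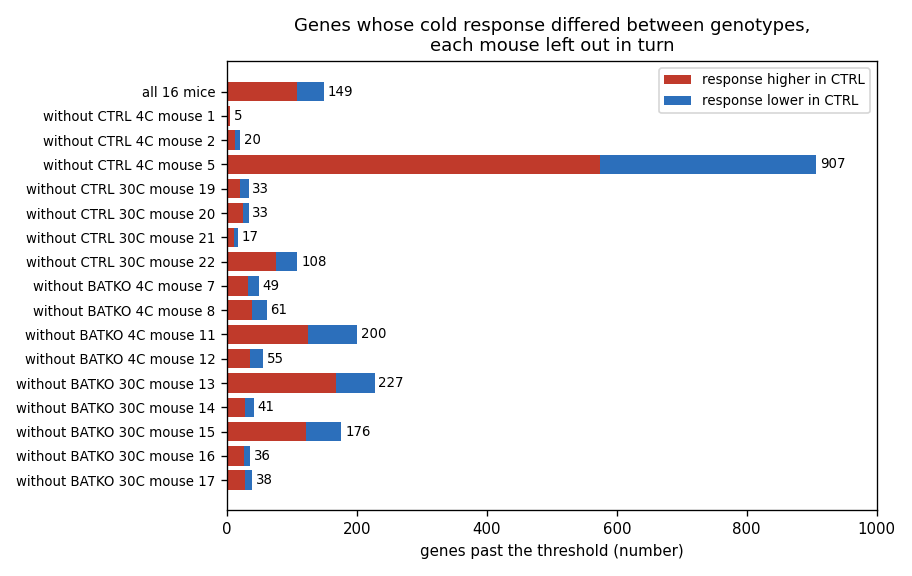
Number of genes past the threshold of the interaction with all 16 mice (top bar) and with each mouse left out in turn; red is a higher and blue a lower response in CTRL. The number goes from 5 without CTRL mouse 1 to 907 without CTRL mouse 5, both at 4 °C.

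*Ckb*, on chromosome 12 (GRCm38, 111669361 to 111672338, minus strand), encodes the brain-type creatine kinase of the cytosol, which also serves creatine cycling in brown fat. Its normalized read count was 557, 728 and 485 in CTRL at 4 °C and 34.7, 73.9, 49.7 and 60.2 in CTRL at 30 °C. In BATKO it was 67.1, 119, 122 and 69.5 at 4 °C and 87.8, 188, 62.4, 112 and 118 at 30 °C. The CTRL mice at 4 °C thus stood above all the others, and the BATKO mice at both temperatures overlapped. *Ckb* rose with cold in CTRL (log2 change 3.43 ± 0.33 SE, adjusted p = 7.08e-07), but its change in BATKO was -0.27 ± 0.29 (adjusted p = 0.480). The difference of 3.70 (95% confidence interval 2.77 to 4.63, adjusted p = 0.000969) was the largest positive one among the genes with a mean count above 50. Since whole tissue was sequenced, fewer cells of a type and less RNA per cell cannot be told apart for this gene or any other.

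*Cars2*, the mitochondrial cysteinyl-tRNA synthetase (chromosome 8, 11513977 to 11550783, minus strand), had the smallest p-value. Its counts were 1429, 972 and 946 in CTRL at 4 °C and 61.6, 58.3, 62.3 and 65.5 in CTRL at 30 °C. BATKO mice had 157, 218, 302 and 186 at 4 °C and 54.6, 83.7, 62.4, 61.6 and 70.7 at 30 °C. The genotypes overlapped at 30 °C and were apart at 4 °C, where BATKO mice stood between the CTRL mice of the 2 temperatures. It rose in both genotypes, by 4.17 in CTRL and 1.69 in BATKO on the log2 scale, a difference of 2.48 ± 0.28 SE (adjusted p = 0.000803). An overlap of 422 exonic bases with *Naxd* on the other strand, and a counting whose strand setting is not stated, leave the split of these reads uncertain.

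*Ctsz* (chromosome 2, 174427493 to 174439039, minus strand), which encodes the lysosomal protease cathepsin Z, was of the same kind. Counts were 7778, 6980 and 4767 in CTRL at 4 °C against 627, 505, 427 and 526 at 30 °C, and 1538, 1648, 2285 and 1313 in BATKO at 4 °C against 569, 548, 479, 629 and 864 at 30 °C. The difference of the responses was 2.18 ± 0.30 SE (adjusted p = 0.00539), for a rise of 3.64 in CTRL and 1.46 in BATKO. *Proca1*, whose product binds cyclin A1 (chromosome 11, 78193392 to 78205763, plus strand), moved in opposite directions. It was at 708, 737 and 798 in CTRL at 4 °C and at 360, 453, 386 and 532 in CTRL at 30 °C. In BATKO it was at 442, 363, 370 and 306 at 4 °C and at 499, 513, 474, 543 and 547 at 30 °C. All CTRL mice at 4 °C were thus above all those at 30 °C, and all BATKO mice at 4 °C were below those at 30 °C. Each mouse was read at 1 temperature only. The log2 change of *Proca1* was 0.79 in CTRL and -0.48 in BATKO (difference 1.27 ± 0.19 SE, adjusted p = 0.0115).

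*Elmod2* had the smallest p-value among genes with a lower response in CTRL and was also the 1 gene that edgeR called at 30 °C, a call lost without the 4 libraries of highest muscle markers. It encodes a GTPase-activating protein of the ARL2 and ARF family and lies on chromosome 8 (83312632 to 83332486, minus strand), 14.2 kb beyond the end of *Ucp1* (83290352 to 83298452, plus strand). CTRL mice had 135, 123 and 169 counts at 4 °C and 215, 217, 270 and 326 at 30 °C, whereas BATKO mice had 1816, 1619, 2757 and 2491 at 4 °C and 735, 799, 903, 797 and 748 at 30 °C. All 9 BATKO mice were above all 7 CTRL mice, and the distance was greater in the cold. It fell with cold in CTRL (-0.85, adjusted p = 0.00221) and rose in BATKO (1.45, adjusted p = 6.61e-06), a difference of -2.30 ± 0.26 SE (adjusted p = 0.000803). BATKO exceeded CTRL by 3.93 on the log2 scale at 4 °C and by 1.63 at 30 °C (adjusted p = 0.000664 at 30 °C). *Ucp1* itself is described with the thermogenic genes.

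The promoters of these 5 genes are shown because they passed whichever single mouse was left out. They are the 250 bases before the RefSeq transcription start (GRCm38.p6), read 5′ to 3′ on the strand of the gene. For *Proca1* the table has 2 promoters, and the one nearest to the start of the GENCODE gene is shown. Capitals mark matches on either strand to AGGTCA (the half-site that TH receptors bind), to TATAAA (the TATA box) or to CCAAT (the CCAAT box). None of the 5 holds TGACGTCA (the cAMP response element) or the DR4 arrangement of TH receptor sites, a pair of AGGTCA with 4 bases between them.
Ckb, chr12:111672339-111672588, minus strand: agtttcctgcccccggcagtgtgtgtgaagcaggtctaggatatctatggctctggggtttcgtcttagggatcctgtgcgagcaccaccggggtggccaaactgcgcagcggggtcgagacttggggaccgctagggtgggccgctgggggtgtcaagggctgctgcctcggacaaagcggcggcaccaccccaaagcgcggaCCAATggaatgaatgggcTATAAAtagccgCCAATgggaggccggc
Cars2, chr8:11550772-11551021, minus strand: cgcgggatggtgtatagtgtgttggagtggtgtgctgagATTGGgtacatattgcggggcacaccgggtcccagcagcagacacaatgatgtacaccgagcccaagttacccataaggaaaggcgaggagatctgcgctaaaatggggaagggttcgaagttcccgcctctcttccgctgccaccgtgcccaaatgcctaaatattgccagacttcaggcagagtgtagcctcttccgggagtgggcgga
Ctsz, chr2:174439040-174439289, minus strand: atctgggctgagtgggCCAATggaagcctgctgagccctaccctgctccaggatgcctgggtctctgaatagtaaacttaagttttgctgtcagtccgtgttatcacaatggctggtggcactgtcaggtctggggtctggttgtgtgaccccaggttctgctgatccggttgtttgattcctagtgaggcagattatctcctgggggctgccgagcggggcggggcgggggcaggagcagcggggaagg
Proca1, chr11:78193142-78193391, plus strand: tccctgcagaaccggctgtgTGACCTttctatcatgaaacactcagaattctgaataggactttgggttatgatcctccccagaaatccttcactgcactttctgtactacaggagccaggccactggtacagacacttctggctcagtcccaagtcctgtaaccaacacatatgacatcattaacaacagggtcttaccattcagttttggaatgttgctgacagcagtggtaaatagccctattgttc
Elmod2, chr8:83332487-83332736, minus strand: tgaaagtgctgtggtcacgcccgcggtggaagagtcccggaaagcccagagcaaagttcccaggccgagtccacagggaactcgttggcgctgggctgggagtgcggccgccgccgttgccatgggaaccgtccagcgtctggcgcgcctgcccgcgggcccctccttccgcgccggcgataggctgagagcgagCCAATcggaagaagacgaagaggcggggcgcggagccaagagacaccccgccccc

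*Ckb* has 1 TATA box and 2 CCAAT boxes, *Cars2*, *Ctsz* and *Elmod2* have 1 CCAAT box each, and the promoter shown for *Proca1* has 1 half-site, on its other strand. Over the 32851 promoters of the RefSeq table, 14% hold the half-site, 0.0152% the DR4 arrangement, 1.55% the cAMP response element, 12.4% the TATA box and 33.8% the CCAAT box. These shares are per promoter, while in those that follow a gene counts if any of its promoters holds the motif. The half-site was found in 12 of the 90 genes with a higher response in CTRL that had a promoter in the table (13.3%), in 7 of the 31 with a lower response (22.6%) and in 12.8% of the 9527 tested genes with a promoter. The cAMP response element was found in 2 of the 90 (2.22%) and in 2 of the 31 (6.45%), beside 3.01% of the tested genes. For the TATA box the numbers were 4 of the 90 (4.44%) and 6 of the 31 (19.4%), beside 8.3%. For the CCAAT box they were 37 of the 90 (41.1%) and 8 of the 31 (25.8%), beside 40.2%. None of the 9527 tested genes held the DR4 arrangement, so its absence says nothing particular about the called genes. These are matches of letters in a short window and not binding sites.

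**Figure D3:**
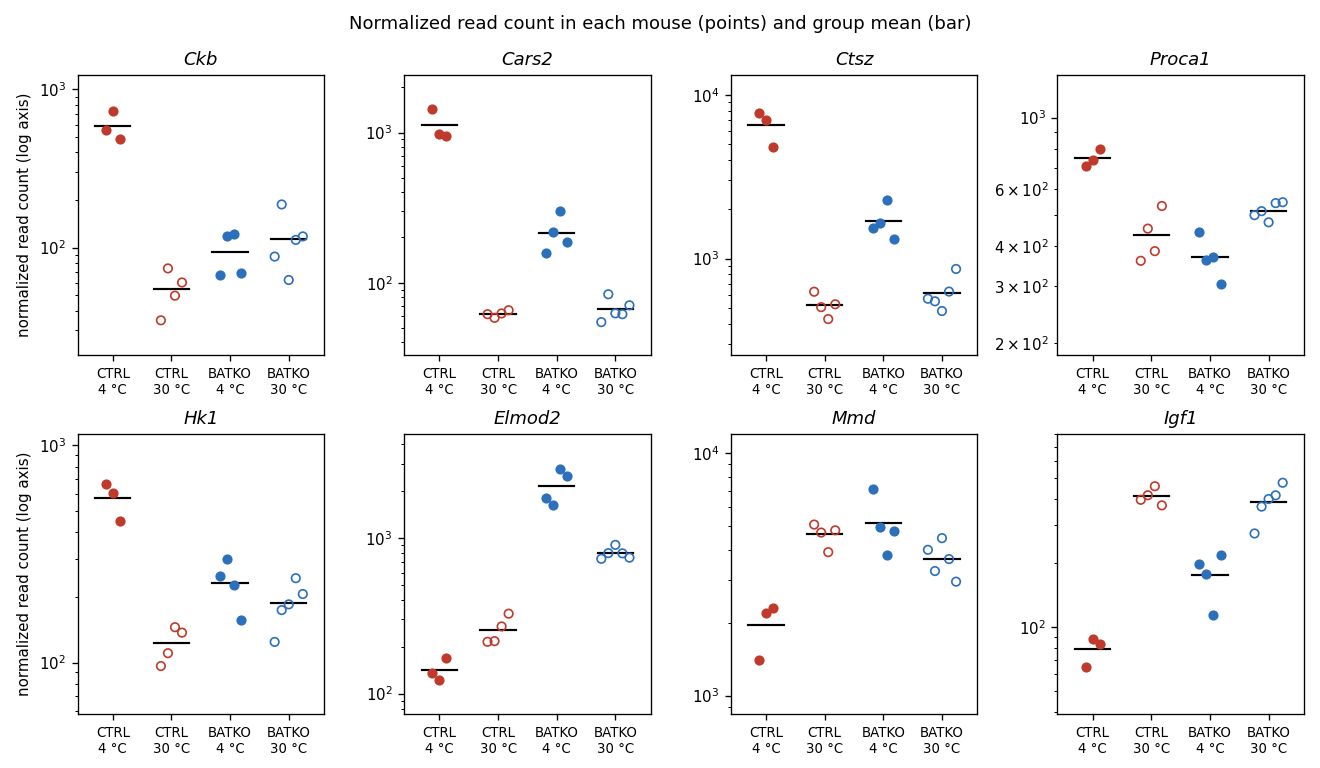
Normalized read count (log axis) of 8 genes in each mouse, with points for mice, bars for group means, red for CTRL, blue for BATKO, filled for 4 °C and open for 30 °C. For *Ckb*, *Cars2*, *Ctsz*, *Proca1* and *Hk1* the CTRL mice at 4 °C are above the other groups, for *Elmod2* the BATKO mice are above CTRL at both temperatures, and for *Mmd* and *Igf1* the CTRL mice at 4 °C are the lowest.

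Other genes with a large positive difference and a mean count above 50 were *Gmpr*, *Ifi27l2a*, *Bmp8b*, *Nnmt*, *Smarcd1*, *Cacna1a*, *Hk1*, *Fgf1* and *Hpdl*. *Gmpr* and *Bmp8b* are described with the thermogenic genes and *Hk1* with the glycolytic ones. *Nnmt*, which methylates nicotinamide, rose from 36.5, 53.0, 44.3 and 37.0 at 30 °C to 911, 1242 and 964 at 4 °C in CTRL, and from 87.0, 101, 52.0, 75.9 and 75.8 to 208, 509, 684 and 235 in BATKO (difference 2.22, adjusted p = 0.0316). The interferon-inducible *Ifi27l2a* rose in CTRL, from 122, 413, 263 and 280 to 1958, 1040 and 1111, while BATKO mice had 192, 298, 621 and 165 at 4 °C and 506, 722, 263, 411 and 492 at 30 °C (difference 2.93, adjusted p = 0.0316). In both cases every CTRL mouse at 4 °C was above every BATKO mouse at 4 °C.

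*Smarcd1*, a subunit of the SWI/SNF chromatin remodelling complex, rose by 3.21 in CTRL and 1.09 in BATKO on the log2 scale. Its CTRL counts at 4 °C were uneven, at 3076, 1217 and 1334, the first in mouse 1, and the difference of 2.12 had an adjusted p of 0.0297. The growth factor gene *Fgf1* was at 689, 621 and 648 in CTRL at 4 °C and at 154, 170, 340 and 298 at 30 °C, against 233, 206, 213 and 94.1 and then 203, 246, 286, 293 and 231 in BATKO. It rose in CTRL (1.44) and changed by -0.43 in BATKO (adjusted p = 0.184), with a difference of 1.88 (adjusted p = 0.0316). *Hpdl*, a mitochondrial enzyme of ubiquinone synthesis, rose by 2.80 in CTRL and 0.96 in BATKO (difference 1.84, adjusted p = 0.0200).

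*Cacna1a*, the pore-forming subunit of a voltage-gated calcium channel, and *Mapt*, which encodes the microtubule-associated protein tau, reached a positive difference in another way: they fell in BATKO and did not pass in CTRL. *Cacna1a* counts were 65.0, 81.5 and 89.9 in CTRL at 4 °C and 48.6, 107, 83.1 and 119 at 30 °C, and in BATKO they were 49.8, 15.3, 43.0 and 24.5 at 4 °C and 105, 174, 173, 188 and 162 at 30 °C. CTRL mice of the 2 temperatures overlapped and BATKO mice did not (log2 change -0.18 with adjusted p = 0.672 in CTRL, -2.27 with adjusted p = 3.91e-05 in BATKO, difference 2.09 with adjusted p = 0.0367). *Mapt* had 381, 321 and 217 in CTRL at 4 °C, 374, 421, 416 and 557 in CTRL at 30 °C, 132, 138, 176 and 98.2 in BATKO at 4 °C, and 630, 659, 492, 770 and 761 in BATKO at 30 °C. Its change was -0.53 in CTRL (adjusted p = 0.0540) and -2.29 in BATKO, a difference of 1.76 (adjusted p = 0.0165).

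The genes with the smallest p-values added *Nenf*, *Egln1* and *Mlycd*, all with a higher response in CTRL. *Egln1*, the oxygen sensor that hydroxylates HIF proteins, had 5494, 5468 and 6046 counts in CTRL at 4 °C and 2640, 2492, 2703 and 1688 in BATKO at 4 °C. At 30 °C it had 987, 1335, 1361 and 1462 in CTRL and 1453, 1483, 1395, 1369 and 1267 in BATKO, ranges that overlap. The rise was 2.14 in CTRL and 0.77 in BATKO, a difference of 1.37 ± 0.22 SE (adjusted p = 0.0165). *Mlycd*, which degrades malonyl-CoA and so relieves the block on mitochondrial fatty acid entry, rose by 3.15 and 1.83 (difference 1.32 ± 0.21, adjusted p = 0.0165), and the secreted *Nenf* by 1.63 in CTRL, with 0.32 in BATKO (adjusted p = 0.0616; difference 1.31 ± 0.20, adjusted p = 0.0115). *Mlycd* was one of the genes whose genotypes did not overlap at 30 °C either, with 139 to 158 in CTRL and 177 to 250 in BATKO.

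Among genes with a lower response in CTRL, the largest difference after a mean count above 50 was that of *Snhg11*, a host gene of a small nucleolar RNA. It stood at 14.7, 10.7 and 36.2 in CTRL at 4 °C, 1503, 642, 1008 and 738 in CTRL at 30 °C, 70.4, 82.4, 52.5 and 414 in BATKO at 4 °C, and 548, 529, 888, 610 and 392 in BATKO at 30 °C. It fell in both genotypes, with log2 changes of -5.54 in CTRL and -1.93 in BATKO (difference -3.61 ± 0.84 SE, adjusted p = 0.0487), and BATKO mouse 12, at 414, was far above the other BATKO mice at 4 °C. Without mouse 12 the difference was -2.45 and the adjusted p 0.0548.

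*Angpt1*, the ligand of the endothelial receptor TIE2, and *Svep1*, a protein of the extracellular matrix, also fell in both genotypes and further in CTRL. *Angpt1* had 34.3, 29.4 and 49.0 counts in CTRL and 169, 90.7, 87.2 and 66.5 in BATKO at 4 °C, against 422 to 676 and 278 to 517 at 30 °C (difference -1.80, adjusted p = 0.0435). *Svep1* had 57.6, 90.8 and 74.7 in CTRL and 206, 220, 170 and 238 in BATKO at 4 °C, against 425 to 743 and 365 to 628 at 30 °C (difference -1.69, adjusted p = 0.0200). The log2 changes in CTRL and BATKO were -2.73 and -0.68 for *Med12l*, a Mediator subunit (difference -2.05, adjusted p = 0.0220). They were -2.15 and -0.54 for *Gng2*, a G protein gamma subunit (difference -1.61, adjusted p = 0.0272), and -2.20 and -0.66 for *Pid1*, an inhibitor of insulin signalling (difference -1.54, adjusted p = 0.0348). *Med12l* shares 1948 exonic bases with *Igsf10* on the other strand, so that its count is uncertain.

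*Sntb1*, *Trps1* and *Pde1a* fell in CTRL and did not pass the threshold in BATKO. *Pde1a*, a phosphodiesterase activated by calcium and calmodulin, was at 90.8, 88.2 and 94.5 in CTRL at 4 °C and at 215, 214, 191 and 218 in BATKO at 4 °C. At 30 °C it was at 268, 230, 209 and 304 in CTRL and at 290, 231, 276, 247 and 206 in BATKO. The CTRL mice at 4 °C were thus the lowest, and the difference was -1.22 ± 0.20 SE (adjusted p = 0.0165). It was -1.68 for the syntrophin gene *Sntb1* (adjusted p = 0.0357) and -1.53 for *Trps1*, a repressor of the GATA type (adjusted p = 0.0487).

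*Mmd*, a membrane protein of the PAQR family, went in opposite directions. CTRL mice had 1396, 2201 and 2293 counts at 4 °C and 5077, 4705, 3905 and 4805 at 30 °C, and BATKO mice had 7087, 4957, 3814 and 4776 at 4 °C and 3994, 3264, 4462, 3657 and 2951 at 30 °C. It fell by 1.24 in CTRL and rose by 0.49 in BATKO (adjusted p = 0.0437), a difference of -1.73 ± 0.29 SE (adjusted p = 0.0165). *Gm45716*, on the same strand and sharing 280 exonic bases with *Mmd*, did not pass in CTRL and rose by 2.50 in BATKO (difference -1.98, adjusted p = 0.0226), and reads of this pair could not be separated here. A processed pseudogene completed the 12 genes with the largest negative difference.

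The 17 lists of genes examined held 428 distinct genes, of which 381 passed the filter on low counts and 11 had a cold response that differed between the genotypes, beside 149 of the 13267 genes tested (1.12%). Their number was 2 without CTRL mouse 1 at 4 °C, 42 without CTRL mouse 5 at 4 °C, 56 with DESeq2 and 51 with limma voom. The lists were chosen with earlier results of these data known, so the shares of their members called are no separate evidence. Members of a list were read in the same mice and are not independent observations.

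All 39 thermogenic genes of the list were tested. With cold, 25 rose and 3 fell in CTRL, where 26.5% of all genes tested rose and 22.6% fell, and 21 rose and 6 fell in BATKO, where the shares over all genes were 21.4% and 18.9%. *Bmp8b*, *Gmpr* and *Letm1* passed the threshold of the interaction, all with a higher response in CTRL, 7.69% of the list beside 1.12% of all genes. Before adjustment, 18 of the 39 had an interaction p-value under 0.05, beside 2471 of the 13267 genes. The median difference was 0.64, beside 0.02 over all genes, and 30 of the 39 differences were above 0, beside 6870 of the 13267 over all genes. The brown adipocyte markers given above, of which none passed, had a median difference of 0.21.

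*Bmp8b*, a secreted protein of brown fat that increases its response to noradrenaline, rose from 24.3, 20.0, 9.94 and 19.0 counts at 30 °C to 2034, 1277 and 1287 at 4 °C in CTRL. In BATKO it rose from 2.56, 5.04, 26.5, 16.1 and 9.57 to 162, 121, 172 and 74.6. Every BATKO mouse at 4 °C was thus below every CTRL mouse at 4 °C and above every mouse at 30 °C (difference 2.90 ± 0.62 SE, adjusted p = 0.0357). *Gmpr*, which reduces GMP to IMP, was at 9154, 13279 and 8861 in CTRL and at 614, 1442, 5264 and 1576 in BATKO at 4 °C. It was at 177, 371, 298 and 393 in CTRL and at 414, 536, 406, 607 and 597 in BATKO at 30 °C. Both genotypes rose, BATKO mice by very different amounts, and the difference was 2.96 ± 0.65 SE (adjusted p = 0.0373). *Letm1*, an ion exchanger of the inner mitochondrial membrane, rose by 3.01 in CTRL and 1.98 in BATKO (difference 1.03 ± 0.22, adjusted p = 0.0373), to 4487, 4445 and 4535 in CTRL and 2999, 3040, 2950 and 2343 in BATKO.

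*Ucp1* did not pass. Its counts were 186808, 174882 and 145819 in CTRL at 4 °C, 91124, 119148, 154509 and 73899 in BATKO at 4 °C, 1591, 8631, 7624 and 14142 in CTRL at 30 °C, and 4644, 10002, 11921, 12740 and 11521 in BATKO at 30 °C. It rose in both genotypes, by 4.40 in CTRL and 3.43 in BATKO on the log2 scale, and the 2 ranges at 4 °C overlapped. The difference of 0.97 had a 95% confidence interval from -0.37 to 2.31 (adjusted p = 0.433), and was between 0.63 and 1.41 when 1 mouse was left out. CTRL mouse 19, at 1591, was also the lowest of its group for *Dio2* and *Elovl3*.

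*Ppargc1a*, the coactivator of mitochondrial genes, was at 656, 1618 and 2189 in CTRL and at 409, 423, 632 and 436 in BATKO at 4 °C, which did not overlap (adjusted p = 0.0220 at 4 °C). At 30 °C it was at 218, 187, 183 and 413 in CTRL and at 251, 166, 178, 175 and 267 in BATKO. The difference of the responses was 1.38 (0.41 to 2.35, adjusted p = 0.119), which passed with DESeq2 and limma voom. *Dio2* was at 3686, 5518 and 4660 in CTRL and 2560, 1443, 3786 and 4234 in BATKO at 4 °C, and between 6.08 and 806 in CTRL and 66.5 and 865 in BATKO at 30 °C, with a difference of 0.62 and an interval from -1.81 to 3.05. Without BATKO mouse 17 at 30 °C this difference was -0.17, and without CTRL mouse 22 it was 1.60. *Elovl3*, a fatty acid elongase, had only 1, 5, 8 and 23 raw counts in CTRL and 15, 5, 3, 16 and 4 in BATKO at 30 °C. The sizes of its fitted rises, 10.33 and 9.59, are therefore uncertain (difference 0.74, -1.22 to 2.70, and between 0.35 without CTRL mouse 19 and 1.81 without CTRL mouse 22 at 30 °C). *Cidea*, a lipid droplet protein, rose by 1.32 and 0.86 (difference 0.46, -0.20 to 1.12, and between 0.24 and 0.65 without those mice). *Fgf21* was at 51, 17 and 20 raw counts in CTRL and at 10, 20, 20 and 18 in BATKO at 4 °C, and at 0 to 3 in every mouse at 30 °C, so that no fold is given. Its adjusted p was 0.396.

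**Figure D4:**
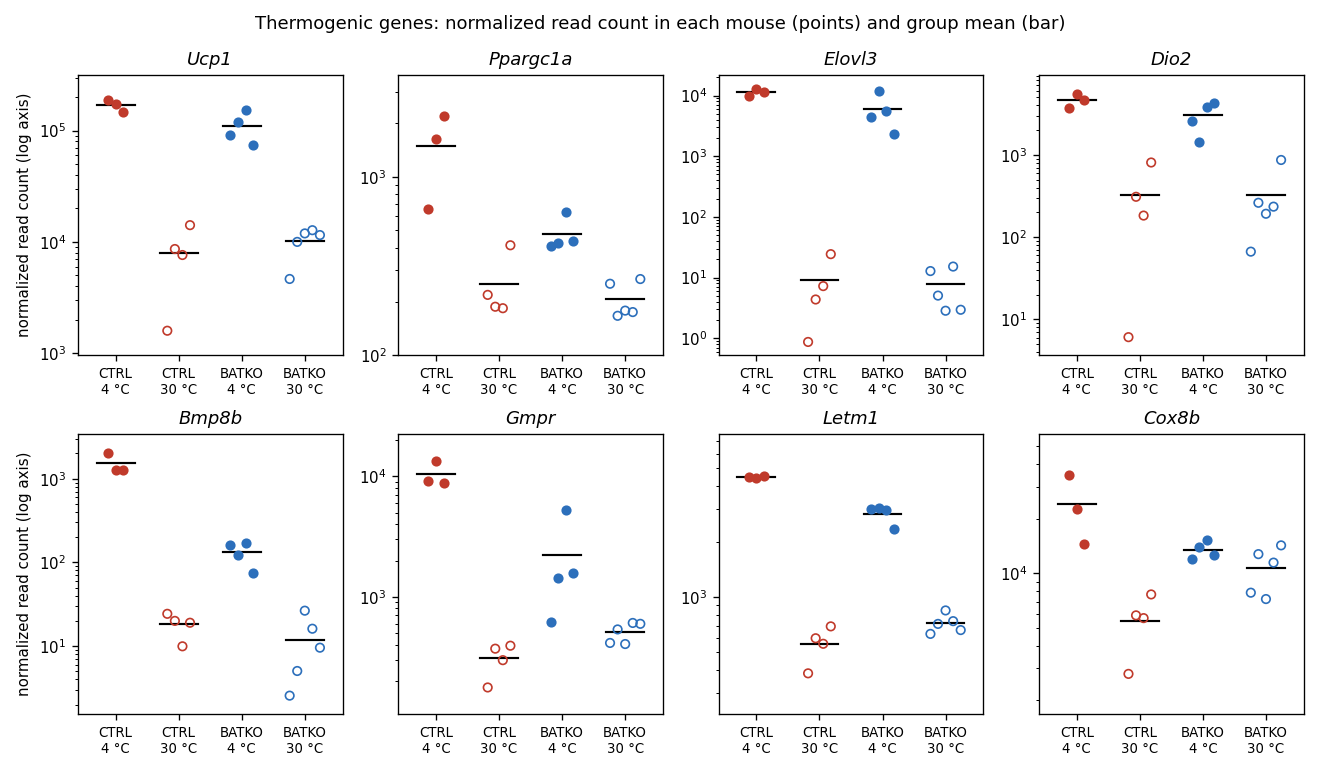
Normalized read count (log axis) of 8 genes named with the thermogenic and respiratory chain lists in each mouse. Points are mice and bars group means, with red for CTRL, blue for BATKO, filled for 4 °C and open for 30 °C. CTRL and BATKO mice at 4 °C overlap for *Ucp1*, *Elovl3* and *Dio2*, and are apart for *Ppargc1a*, *Bmp8b*, *Gmpr* and *Letm1*.

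In the list of creatine and calcium cycling, *Ckb* was the only one of 14 genes tested that passed (7.14% beside 1.12% of all genes). The median difference was -0.11, and 4 genes rose and 5 fell with cold in CTRL (26.5% and 22.6% of all genes). Among the 29 genes of glucose uptake and glycolysis, *Hk1* and *Pfkl* passed, both with a higher response in CTRL (6.90% of the list beside 1.12% of all genes). The median difference was 0.50, with 23 of 29 above 0 (6870 of 13267 over all genes). *Hk1*, the hexokinase that starts glycolysis, was at 667, 604 and 449 in CTRL and 250, 300, 227 and 156 in BATKO at 4 °C, and at 96.3, 110, 145 and 137 in CTRL and 124, 174, 185, 245 and 207 in BATKO at 30 °C. It rose by 2.23 in CTRL, and its change of 0.32 in BATKO did not pass (adjusted p = 0.234; difference 1.91 ± 0.31 SE, adjusted p = 0.0165). *Pfkl*, the liver-type phosphofructokinase, was at 3693, 2631 and 2008 in CTRL and 1302, 1381, 1779 and 852 in BATKO at 4 °C, and rose in both (difference 1.47 ± 0.33, adjusted p = 0.0435).

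Of 25 genes of triglyceride synthesis and lipid droplets, 20 rose with cold in each genotype (26.5% of all genes in CTRL and 21.4% in BATKO), and *Pck1* alone passed the interaction (4% beside 1.12% of all genes). *Pck1*, which makes the glycerol backbone from smaller molecules, was at 7741, 7832 and 8888 in CTRL at 4 °C and 17960, 22302, 18418 and 16455 in BATKO at 4 °C. At 30 °C it was at 8708, 8538, 7696 and 14054 in CTRL and at 8099, 10146, 10054, 10779 and 11692 in BATKO. Cold went with a higher count in BATKO (0.89, adjusted p = 0.00059), while the change in CTRL was -0.26 (adjusted p = 0.281; difference -1.15 ± 0.26, adjusted p = 0.0433). This was opposite in sign to the median of its list, 0.51, and to 23 of the 25 members.

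None of the 23 genes of lipogenesis passed, nor of the 22 of lipolysis and fatty acid uptake, the 25 of fatty acid oxidation, the 49 nuclear subunits of the respiratory chain or the 8 mitochondrially encoded genes tested. The respiratory chain subunits had a median difference of 0.39, with 44 of 49 above 0 (6870 of 13267 over all genes). Of these subunits, 43 rose with cold in CTRL (26.5% of all genes) and 31 in BATKO (21.4%). Before adjustment, 21 of the 49 had an interaction p-value under 0.05, beside 2471 of the 13267 genes. The smallest p-value among them was that of *Cox8b*, a subunit of cytochrome oxidase, with 34576, 22713 and 14601 counts in CTRL at 4 °C and 11978, 13966, 15298 and 12594 in BATKO at 4 °C. CTRL at 30 °C had 2801, 5879, 5676 and 7663, and BATKO at 30 °C had 7835, 12769, 7228, 11468 and 14267. The genotypes overlapped at both temperatures, and the difference of 1.79 had an adjusted p of 0.0509. *Cox8b* passed in 10 of 24 other settings, DESeq2 and limma voom among them, with an adjusted p between 0.0161, without CTRL mouse 5 at 4 °C, and 0.174, without CTRL mouse 1 at 4 °C, when 1 mouse was left out. The medians were -0.12 for lipogenesis, 0.20 for lipolysis and uptake, 0.09 for oxidation and -0.07 for the mitochondrially encoded genes. The smallest p-values of the first 3 lists were those of *Scd1* (-1.35, adjusted p = 0.102), *Lmf1* (1.10, adjusted p = 0.0577) and *Acadvl* (1.00, adjusted p = 0.0815), which passed in 1, 5 and 3 of the 24 other settings.

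Genes of TH signalling did not pass. Of 14 tested, 7 differences were above 0, with a median of 0.07, and the smallest p-value was that of the coactivator *Ncoa2* (-0.76, adjusted p = 0.0908), which passed in 2 of 24 other settings. The receptor gene *Thra* was at 244, 236 and 158 in CTRL and 126, 184, 154 and 195 in BATKO at 4 °C, and at 213, 239, 145 and 168 in CTRL and 234, 240, 187, 294 and 294 in BATKO at 30 °C (difference 0.75, 0.15 to 1.36, adjusted p = 0.166). *Thra* shares 263 exonic bases with *Nr1d1* on the other strand. *Thrb* was between 242 and 298 in CTRL and 188 and 260 in BATKO at 4 °C, and between 274 and 355 in CTRL and 174 and 290 in BATKO at 30 °C (difference -0.23, -0.70 to 0.25, adjusted p = 0.631). Both receptor genes overlapped between the genotypes at each temperature.

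Of 14 TH target genes tested, 9 rose with cold in CTRL (26.5% of all genes) and 10 in BATKO (21.4%), and *Elmod2* alone passed the interaction (7.14% beside 1.12% of all genes). The median difference was 0.30. This list too was chosen with earlier results of these data known. *Elmod2* fell with TH in wild-type mice of the TH experiment given below (log2 change -2.06). The study's own criteria for a target gene ask for a rise after T3. *Hr*, a corepressor and one of the best known TH targets, was not higher in the cold: it was at 24.5, 28 and 14.0 in CTRL and 13.0, 14.1, 17.9 and 27.6 in BATKO at 4 °C, and between 16.5 and 164 in CTRL and 17.9 and 181 in BATKO at 30 °C (difference 0.52, -1.58 to 2.61, adjusted p = 0.831). Leaving out 1 mouse gave differences from 0.0038, without BATKO mouse 17, to 1.33, without CTRL mouse 22. It fell with cold in BATKO (-2.19, adjusted p = 0.0151), and its change in CTRL was -1.67 (adjusted p = 0.0767). *Klf9*, a zinc finger transcription factor, was between 1128 and 2172 in all 16 mice (difference 0.24, -0.32 to 0.80, adjusted p = 0.674).

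None of 28 genes of adrenergic and cAMP signalling passed (median -0.13). The smallest p-value was that of *Gnas*, the stimulatory G protein alpha subunit, with 58276, 67808 and 59208 in CTRL and 28955, 26866, 40644 and 36621 in BATKO at 4 °C, and 19096 to 29179 and 17694 to 27942 at 30 °C (difference 0.89, adjusted p = 0.0873, passed with DESeq2 and limma voom). Among 23 secreted factors and adipokines, 1 had a higher response in CTRL, *Bmp8b* (0.807% of all genes), and 1 a lower one, *Igf1* (0.317% of all genes), with a median of 0.64. *Igf1*, a growth factor, had 65.0, 88.2 and 82.9 counts in CTRL and 197, 177, 113 and 217 in BATKO at 4 °C, against 395, 415, 457 and 372 in CTRL and 275, 367, 398, 414 and 475 in BATKO at 30 °C. It fell by 2.38 in CTRL and by 1.13 in BATKO (difference -1.25 ± 0.28, adjusted p = 0.0393).

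In the list of 20 clock genes, *Hlf*, a transcription factor of the clock output, passed (5% beside 1.12% of all genes). It was at 221, 212 and 252 in CTRL and 560, 502, 579 and 619 in BATKO at 4 °C, and at 582 to 1064 in CTRL and 654 to 1014 in BATKO at 30 °C (difference -1.35 ± 0.26, adjusted p = 0.0272). The median of the list was -0.42, with 6 of 20 above 0 (6870 of 13267 over all genes), and the labels give no time of day. Of 23 genes of collagens and the matrix, *Postn*, the matrix protein periostin, passed (4.35% beside 1.12% of all genes): it fell by 0.73 in CTRL and rose by 0.42 in BATKO (difference -1.15 ± 0.24, adjusted p = 0.0323). None of 34 genes of the unfolded protein and integrated stress response (median 0.15) and none of 13 cell cycle genes (median -0.000878) passed, *Sdf2l1* (1.73, adjusted p = 0.0841, passed with limma voom) and *Tyms* (0.74, adjusted p = 0.308) having the smallest p-values.

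**Figure D5:**
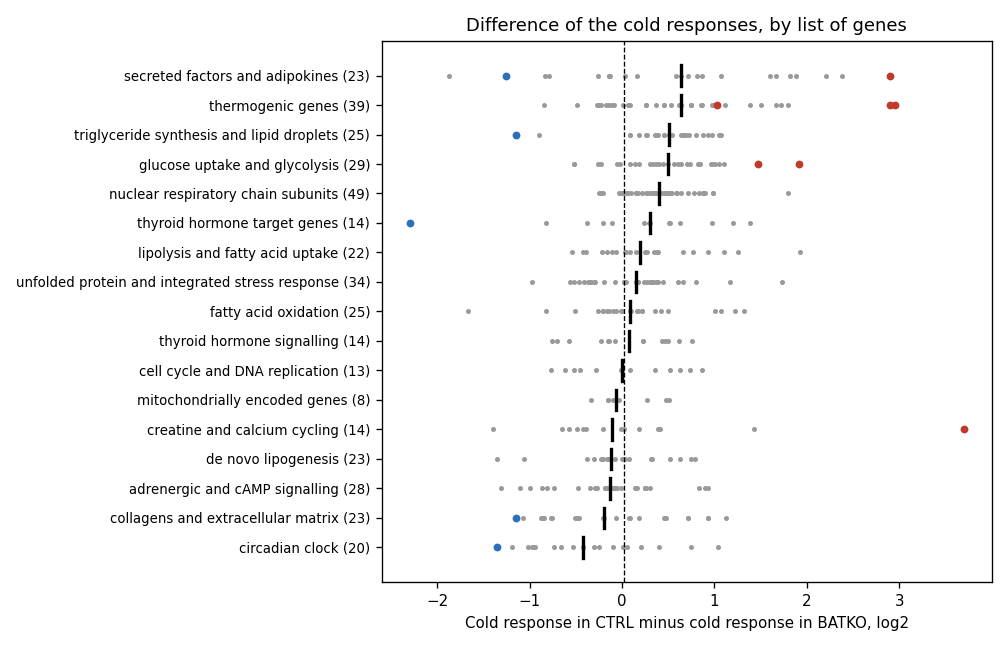
Log2 cold response in CTRL minus that in BATKO (horizontal axis) of each tested member of the 17 lists, with the number tested in parentheses; large coloured points passed the threshold (red positive, blue negative), small grey points did not, black ticks are list medians and the dashed line is the median of all genes, 0.02. The medians lie between -0.42 for the clock and 0.64 for thermogenic genes and secreted factors.

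Among markers of other cells, 1 of 14 endothelial markers passed (7.14% beside 1.12% of all genes). *Kdr*, the main VEGF receptor, was at 1959, 1734 and 2334 in CTRL and 1259, 1035, 1236 and 949 in BATKO at 4 °C, and at 834 to 986 in CTRL and 929 to 1232 in BATKO at 30 °C (difference 1.05 ± 0.20, adjusted p = 0.0272). The sum of the endothelial list was between 10213 and 11384 in CTRL at 4 °C, 8190 and 10731 in BATKO at 4 °C, 8376 and 9985 in CTRL at 30 °C, and 9056 and 12485 in BATKO at 30 °C, with a median difference of 0.35. No marker of white adipocytes (7 tested, median -0.83), skeletal muscle (16, -0.41), macrophages (12, -0.85), lymphocytes (1), fibroblasts and preadipocytes (13, -0.56), nerve and Schwann cells (9, -0.17) or red blood cells (5, 0.63) passed. Before adjustment, 6 of the 12 macrophage markers and 7 of the 13 fibroblast and preadipocyte markers had an interaction p-value under 0.05, beside 2471 of the 13267 genes. Macrophage markers summed to between 1033 and 1194 in CTRL and 1157 and 1614 in BATKO at 4 °C, and to between 1200 and 2077 in CTRL and 932 and 1337 in BATKO at 30 °C. *Hoxc9*, *Hoxc10* and *Tcf21* of white adipocytes and *Th* and *Dbh* of sympathetic nerves were at or under 3 counts in every library. The part that any of these cells has in the differences was not tested.

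The same series holds a TH experiment on the BAT of other mice, in which wild-type (WT) and BATKO mice given PTU, a drug that blocks TH synthesis, were compared 24 h after TH and without it (n = 4 each for WT, n = 5 each for BATKO). Of the 107 genes whose cold response was higher in CTRL, 68 (63.6%) rose and 3 fell with TH in WT, where 17.2% of the 12757 genes tested in both experiments rose and 15.0% fell. Of the 41 genes with a lower response in CTRL that were tested, 24 (58.5%) fell and 1 rose. The TH response was higher in WT than in BATKO for 49 of the 107 (45.8%) and lower for 2, beside 7.74% and 5.49% of all, and lower for 13 of the 41 (31.7%) and higher for 0. The TH table as a whole had 4239 genes (29.9%) responding in WT and 1740 (12.3%) whose response depended on genotype, 1014 higher (7.15%) and 726 lower (5.12%) in WT. No mouse is shared by the 2 experiments, while the BATKO genotype is.

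*Ckb* rose with TH by 3.33 ± 0.56 SE in WT (adjusted p = 4.31e-05), and this response was 2.92 higher than in BATKO (adjusted p = 0.00659). *Bmp8b* (5.50, difference 5.41), *Fgf1* (3.24, 2.96), *Cacna1a* (3.24, 3.15), *Hpdl* (2.36, 1.99), *Hk1* (1.52, 1.65), *Ctsz* (1.36, 1.19), *Proca1* (1.31, 1.19), *Letm1* (1.19, 1.13), *Nenf* (1.18, 1.06), *Mapt* (0.98, 0.91) and *Egln1* (0.79, 0.77) likewise rose in WT and passed the threshold for a higher response in WT than in BATKO. *Elmod2* (-2.06, difference -1.89), *Gm45716* (-2.51, -2.23), *Mmd* (-2.20, -1.74), *Pde1a* (-1.18, -0.89) and *Gng2* (-1.14, -0.92) fell in WT and passed for a lower response in WT. *Pck1* (-2.48), *Svep1* (-2.07), *Igf1* (-1.30), *Sntb1* (-1.19), *Pid1* (-0.77) and *Trps1* (-0.75) fell in WT, but their TH response did not pass for a difference between WT and BATKO (adjusted p = 0.0593, 0.0874, 0.280, 0.101, 0.409 and 0.0627). *Kdr* rose in WT (0.34), and its TH response did not pass for a difference either (adjusted p = 0.797). Of the named genes that passed the cold interaction, *Nnmt* and *Hlf* went the other way. *Nnmt* had a higher cold response in CTRL but fell with TH in WT (-2.20, adjusted p = 0.000243), and *Hlf* had a lower one but rose (0.71, adjusted p = 0.0438). Among those with a higher cold response in CTRL, *Cars2*, *Gmpr*, *Ifi27l2a*, *Mlycd*, *Smarcd1* and *Pfkl* did not pass in WT, with log2 changes of -0.32, 1.03, -0.61, 0.05, 0.23 and 0.15. Among those with a lower one, *Snhg11*, *Med12l*, *Angpt1* and *Postn* did not pass, at -0.64, -0.16, 0.03 and -0.41, nor did the pseudogene.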

How the data were processed

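Raw read counts per gene were analysed in the 16 mice kept at 4 °C or 30 °C and, for comparison, in the 30 mice of the thyroid hormone experiment. The authors aligned reads to GRCm38 (mm10) with Bowtie2 (2.3.2.2 in the submitters' processing notes), counted them with htseqcount and deposited whole-number counts without normalization. The annotation and the strand setting are not given in the sources used here. Without strand, overlapping genes cannot be told apart. Besides the genes marked above, this concerns among others *Svep1* (2244 exonic bases shared with 1 other gene), *Acadvl* (1151), *Angpt1* (737), *Gmpr* (375) and *Bmp8b* (339).

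Counts were fitted with edgeR (4.0.16, R 4.3.3) after TMM scaling. Genes had to have a mean above 10 normalized counts over the mice of their table. The fit had one mean per group, the quasi-likelihood test gave p-values, and Benjamini-Hochberg adjustment over all genes tested had a threshold of 0.05. Alternatives were DESeq2 (1.42.0), limma voom with sample weights (3.58.1), RLE factors, other filters, mitochondrially encoded genes left out, 2 groups only, and each mouse left out. Those on muscle transcripts were added after the data were seen.

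Named genes were the 12 largest differences in each direction and the 12 smallest p-values with a mean count above 50, the called members of each list or its smallest p, called cell type markers and genes fixed by name. The comparison, the names and the lists were chosen with earlier results of these data known. Positions came from GENCODE M21, which matched 55327 of 55341 symbols. The other 14 were turned into dates by a spreadsheet and hold 0.0333% of counts. Replicates were compared for duplicates: over 25 pairs, chi-square divided by its degrees of freedom was at least 13.6. The floor of 3 counts covers counting error only. No label names separate litters, so p-values measure the spread between these samples, which may be technical. A further table of the series was not used here.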

Additional observations from a re-analysis of the deposited data

Results flagged for a closer look

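The cold response differed between the genotypes for 149 genes by the interaction test itself. The 12 genes with the smallest p-values had differences (CTRL minus BATKO, log2) of 2.48 for *Cars2*, -2.30 for *Elmod2*, 3.70 for *Ckb*, 2.18 for *Ctsz*, 1.27 for *Proca1*, 1.31 for *Nenf*, 1.37 for *Egln1*, 1.32 for *Mlycd*, -1.22 for *Pde1a*, 1.91 for *Hk1*, 1.76 for *Mapt* and -1.73 for *Mmd*.

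In 9 of the 168 groups of 4 or 5 mice searched over the named genes, 1 mouse stood apart from the others of its group, where chance gives about 8.4. The value given is the distance to the nearest mouse as a share of the whole range. For BATKO at 4 °C it was 0.917 for *Snhg11* (mouse 12 at 414, the others between 52.5 and 82.4), 0.872 for *Letm1* (mouse 12 at 2343, the others between 2950 and 3040), 0.895 for *Pid1* (mouse 7 at 192, the others between 167 and 170), 0.869 for *Pde1a* (mouse 11 at 191, the others between 214 and 218) and 0.881 for *Ppargc1a* (mouse 11 at 632, the others between 409 and 436). For CTRL at 30 °C it was 0.85 for *Ppargc1a* and 0.841 for *Pck1*, both in mouse 22. For BATKO at 30 °C it was 0.756 for *Dio2* (mouse 17 at 865, the others between 66.5 and 261) and 0.727 for *Sdf2l1* (mouse 16). Without its mouse the call of 3 of these genes was lost in edgeR's test: *Snhg11* (difference -2.45, adjusted p = 0.0548), *Pid1* (-1.50, adjusted p = 0.0717) and *Letm1* (0.94, adjusted p = 0.0771).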

How the results depend on the processing

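The 149 genes became 652 with DESeq2, 724 with limma voom, 4 without the 4 libraries of highest muscle markers, and 5 to 907 when 1 mouse was left out; the 5 other settings gave 126 to 185. Genes differing between BATKO and CTRL at 4 °C (286) became 649 with DESeq2 (211 higher, 438 lower), 769 with voom, 154 without those 4 libraries, 61 with only the 2 groups fitted, and 53 to 565 when 1 mouse was left out. At 30 °C the 1 gene became 8 with DESeq2 and 0 without the 4 libraries. The 11 list members became 56 with DESeq2, 51 with voom, 18 above a mean count of 50, 2 without the 4 libraries, and 2 to 42 when 1 mouse was left out. The cause of these changes was not tested, and some settings also had fewer mice or genes. The counts of cold responses in each genotype stayed within 1.5 times in all settings run, and both TH counts did so in the 5 settings run for them, which left out no mouse. Of 1339 values of named genes under other settings, 4 changed sign, none of a called gene: *Dio2* was -0.167 without BATKO mouse 17 at 30 °C (up to 1.602 without CTRL mouse 22) and -0.1914 without the 4 libraries, *Hr* was -0.02285 without the 4 libraries, and *Klf9* was -0.03995 without CTRL mouse 5 at 4 °C (up to 0.3712 without CTRL mouse 1). These settings reuse the same mice, so the kept signs of called genes are no separate evidence. No paired analysis was possible because the groups share no mouse number.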
